A study of Homo sapiens with 10 samples.

Results

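The RNA levels of 10 regulators of the epithelial to mesenchymal transition (EMT) were followed in PC3 cells exposed to an LXR agonist. They were taken by symbol from the 62656 genes of the deposited expression table: SNAI1, SNAI2, SNAI3, ZEB1, ZEB2, TWIST1, TWIST2, OVOL1, GRHL2 and ESRP1. PC3 is a human prostate cancer cell line that was established from a bone metastasis. The treated cells received 1 µM of GW3965, a synthetic agonist of the liver X receptors (LXRs), and the control cells received its vehicle DMSO, both for 24 h in RPMI-1640 medium with serum. Each condition held 5 RNA-seq libraries. All came from 1 unmodified cell line, and nothing in the sources says whether the 5 were separate cultures, so the p-values measure the spread between these libraries, which may be technical.

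During EMT, epithelial cells lose their junctions and polarity and gain motility. SNAI, ZEB and TWIST proteins bind E-box elements and repress epithelial genes such as CDH1, which encodes E-cadherin. OVOL1 and GRHL2 are transcription factors that hold the epithelial state, OVOL1 partly by repressing ZEB1 and GRHL2 by activating junction genes and opposing ZEB1, while ESRP1 is a splicing factor that keeps epithelial exons in genes such as CD44 and FGFR2. ZEB1 and ZEB2 form a double-negative loop with the miR-200 microRNAs: the microRNAs bind the 3′ ends of the ZEB messages, and the ZEB proteins repress the microRNA genes.

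Levels are given as RPKM, that is reads per kilobase of gene length after scaling of each library. The reads behind them were recovered from the deposited values and came to between 30443936 and 41652958 per library. The LXR target genes ABCA1 and ABCG1, which encode cholesterol transporters, SREBF1 and MYLIP rose by log2 fold changes of 2.29, 2.13, 0.74 and 0.74 (adjusted p = 0.000630, 0.000124, 0.00362 and 0.00714, limma). The epithelial keratins were abundant, with means of 36.8 RPKM for KRT8 and 140.1 RPKM for KRT19 in DMSO. KLK3, which encodes a secreted protease of the prostate, had no read. None of 5 leukocyte markers reached a mean of 0.5 RPKM. The fibroblast markers DCN, LUM, THY1 and PDGFRB had means of at most 0.0503 RPKM, while the collagens COL1A1 and COL3A1 were at 1.00 and 3.15 RPKM in DMSO. Of 4 endothelial markers, PECAM1 and KDR were at 0.639 and 1.14 RPKM in DMSO, and VWF and CDH5 at 0.00394 and 0.00583 RPKM. The summed level of the 6 fibroblast markers ran from 3.10 to 5.81 RPKM in DMSO and from 2.88 to 5.85 RPKM in GW3965. Libraries DMSO 1, GW3965 1 and GW3965 2 stood apart from the other 7 on the first principal component of the reads, which held 41.4% of the variance. They lay between -19.7 and -17.7 on it. The other 7 were not uniform, running from -3.91 to 21.9, with DMSO 4 at that far end and GW3965 4 next at 11.8. Results that rest on the 3 are given with and without them, and DMSO 4 is kept in both. Without the 3, ABCA1 and ABCG1 passed, and SREBF1 (log2 fold change 0.71, adjusted p = 0.0897, limma) and MYLIP (0.68, adjusted p = 0.101, limma) did not.

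The sequences that tie the ZEB genes to the microRNA loop are shown first. Whether they bear on the levels of ZEB1 and ZEB2 given below was not tested. The mature microRNAs, from RefSeq (GRCh38.p14), are given 5′ to 3′ with the seed, bases 2 to 8, in capitals. All 6 matched the table by name. The first 3 share 1 seed, the next pair share another, and miR-205 has its own.
hsa-miR-200b-3p: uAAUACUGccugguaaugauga
hsa-miR-200c-3p: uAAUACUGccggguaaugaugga
hsa-miR-429: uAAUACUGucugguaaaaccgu
hsa-miR-200a-3p: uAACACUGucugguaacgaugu
hsa-miR-141-3p: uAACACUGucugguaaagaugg
hsa-miR-205-5p: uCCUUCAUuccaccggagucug

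Both miR-200 seeds differ by a single substitution, U4C, counted from the 5′ end of the mature microRNA with the base of miR-200b-3p first. MIR200B, MIR200A and MIR429 lie on chromosome 1 and MIR200C and MIR141 on chromosome 12. The DNA letters that pair with the seeds are CAGTATT for miR-200b, miR-200c and miR-429, CAGTGTT for miR-200a and miR-141, and ATGAAGG for miR-205. These were sought on the message strand of the longest annotated 3′ UTR of each gene (GENCODE 29, GRCh38). Counts and shares were not adjusted for UTR length, and a longer UTR offers more places for a match. The ZEB1 UTR of 2549 bases held CAGTATT 6 times, CAGTGTT 3 times and ATGAAGG once. In the ZEB2 UTR of 5370 bases CAGTATT occurred 5 times and CAGTGTT 4 times. Of 19132 genes, 16.0% held CAGTATT at least once, 0.0157% at least as often as ZEB1 and 0.0366% at least as often as ZEB2. For CAGTGTT the share with at least 1 match was 18.3%, while 1.05% held it at least as often as ZEB1 and 0.303% at least as often as ZEB2. For ATGAAGG the share with at least 1 match was 11.7%. Neither SNAI1, SNAI3, TWIST1, TWIST2 nor OVOL1 had a match to any of these 3 strings, while SNAI2 had 1 CAGTATT, GRHL2 had 1 CAGTGTT and ESRP1 had 1 CAGTATT and 1 CAGTGTT. The first CAGTATT and the first CAGTGTT of each ZEB message are shown with their flanks, and the capitals mark the letters that pair with the seed.
ZEB1, bases 369 to 375 of the UTR: ttgttttatcttatCAGTATTatcact
ZEB1, bases 782 to 788: aaaatcatcagaatCAGTGTTtgtgat
ZEB2, bases 392 to 398: gcactaccatacatCAGTATTtttatt
ZEB2, bases 208 to 214: gcaaaaattttgtaCAGTGTTaaggcc

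A match is a description of the letters and does not show that a site is used. Mature microRNAs were not measured by these libraries. Of their precursors and host genes, MIR200A had 1 read over the DMSO libraries and 5 over the GW3965 libraries, MIR200B 1 and 2, MIR429 4 and 3, MIR141 1 and 0, MIR200CHG 0 and 1, and MIR205HG 1 and 5. MIR200C and MIR205 had no read. All 8 together thus held 24 reads over the 10 libraries, and no fold change is given for any of them.

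The 10 regulators fell into a group of 6 that PC3 cells transcribed measurably and a group of 4 that were close to 0. Over all 10 libraries, the order of mean levels was TWIST1 (5.79 RPKM), ZEB1 (3.64), SNAI3 (1.67), SNAI2 (1.09), TWIST2 (0.927) and SNAI1 (0.610), followed by ZEB2 (0.0275), ESRP1 (0.0254), GRHL2 (0.00426) and OVOL1 (0.00244). TWIST1 was above ZEB1 and ZEB1 was above SNAI3 in 10 of 10 libraries. Across libraries their ranges met at 4.68 RPKM, both the lowest value of TWIST1 and the highest of ZEB1, and so barely overlapped. The ranges of ZEB1 and SNAI3 overlapped too, as did those of SNAI3, SNAI2, TWIST2 and SNAI1 from each to the next. Within a library, SNAI3 exceeded SNAI2 in 8, SNAI2 exceeded TWIST2 in 7 and TWIST2 exceeded SNAI1 in 9. The lowest value among the 6 was 0.308 RPKM, for SNAI1, and the highest among the 4 was 0.0483 RPKM, for ESRP1, so the groups did not overlap. RPKM divides by gene length, and in reads the gap was smaller, with 371 for SNAI1 and 258 for ZEB2 over the 10 libraries. ZEB2 and ESRP1 overlapped, and so did GRHL2 and OVOL1. Of the 20402 tested genes, all with a mean of at least 0.5 RPKM, 66.4% had a lower mean than TWIST1. For SNAI1 this share was 6.71%. The 42254 genes that were not tested had lower means than both.

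**Figure D1:**
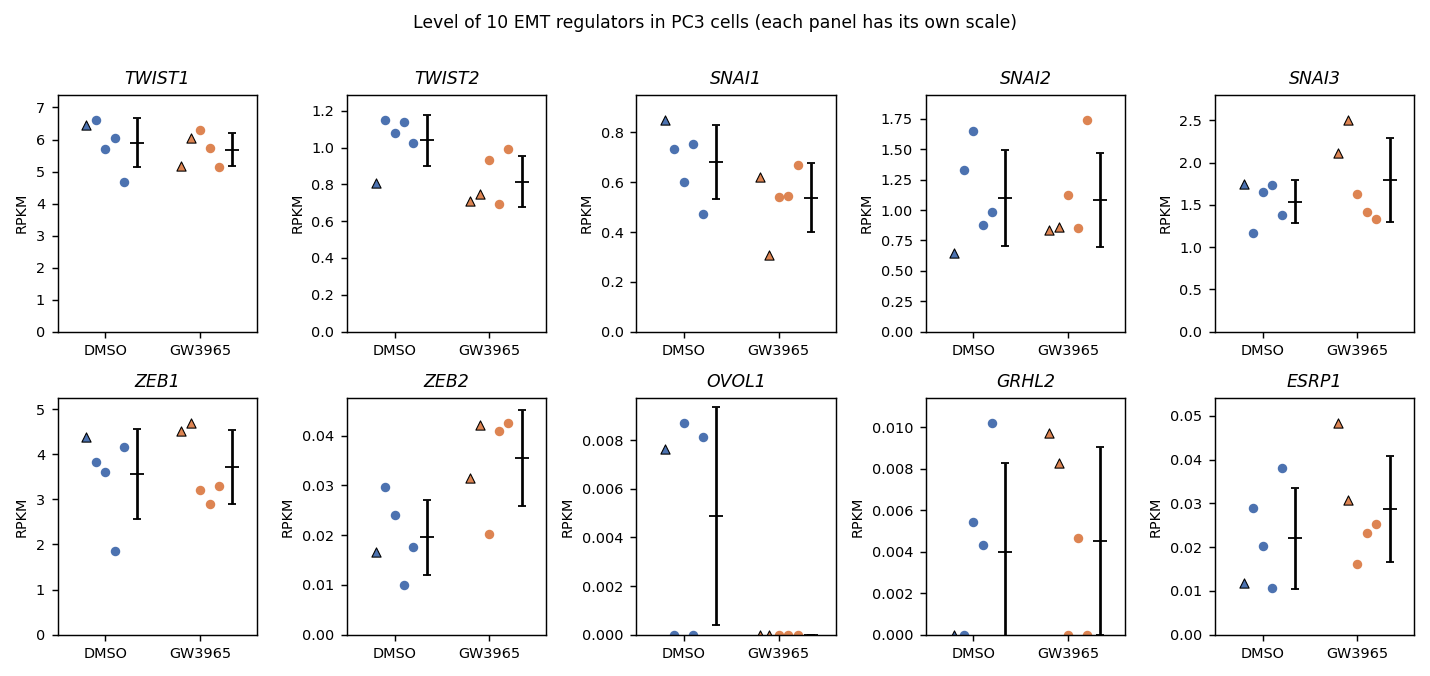
Level of each of the 10 regulators in RPKM (vertical axis, from 0, a separate scale for each gene) in the 5 DMSO and 5 GW3965 libraries. Points are libraries, triangles are the libraries DMSO 1, GW3965 1 and GW3965 2, and the bars are the mean ± SD. Both conditions overlap for all 10 genes, and ZEB2, OVOL1, GRHL2 and ESRP1 stay below 0.05 RPKM.

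Whether the agonist changed these regulators was tested with limma on log2(RPKM + 0.1) across 20402 genes whose mean over the libraries was 0.5 RPKM or more, so fold changes are on that scale. This filter was passed by 6 of the 10 regulators, and 0 of these 6 passed the adjusted threshold of 0.05. Of all tested genes, 32 passed (30 higher and 2 lower), or 0.157%. At an unadjusted p under 0.05 there was 1 of the 6, TWIST2, against a background of 6.99% of all tested genes. In none of the 6 were both groups of libraries apart, against 1.84% of all tested genes. The median log2 fold change of the 6 was -0.03, and that of all tested genes was 0.0034. The same count of 0 was found under all 21 alternative settings, including limma's voom on the recovered reads and a filter of 1 RPKM, which left 4 of the 6. In bulk RNA, fewer cells that carry a message and less of it per cell cannot be told apart.

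**Figure D2:**
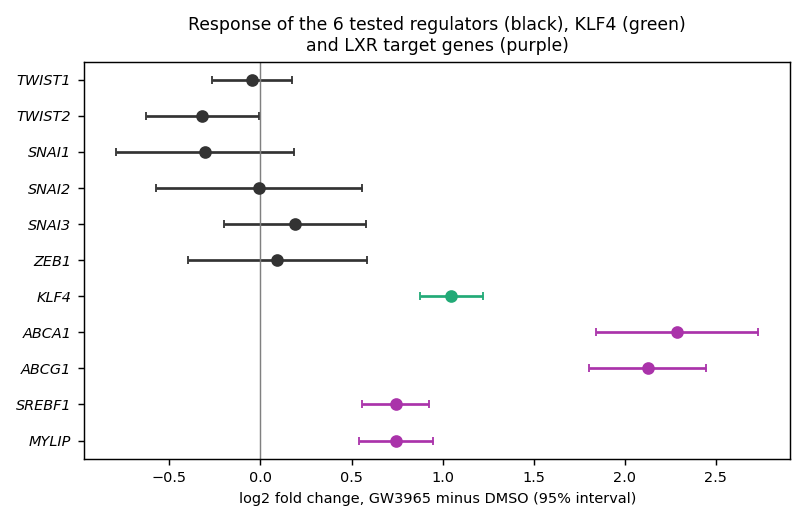
The log2 fold change (GW3965 minus DMSO, horizontal axis) with its 95% interval from limma for the 6 tested regulators (black), KLF4 (green) and 4 LXR target genes (purple). The intervals of TWIST1, SNAI1, SNAI2, SNAI3 and ZEB1 cross 0 and that of TWIST2 ends just below it, while KLF4 and the LXR target genes lie to the right.

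TWIST1 and TWIST2 are basic helix-loop-helix factors that act as dimers with E proteins. TWIST1 (chr7:19020991-19117672, minus strand) was at 6.44, 6.60, 5.71, 6.05 and 4.68 RPKM in DMSO libraries 1 to 5 and at 5.18, 6.04, 6.31, 5.74 and 5.15 RPKM in GW3965 libraries 1 to 5. Every treated library lay within the range of the controls. Its log2 fold change was -0.05 ± 0.10 (SE) with a 95% interval from -0.26 to 0.17 (adjusted p = 0.967, limma), the narrowest interval among the 6 regulators. TWIST2 (chr2:238848032-238910543, plus strand) was at 0.806, 1.15, 1.08, 1.14 and 1.02 RPKM in DMSO and at 0.708, 0.750, 0.933, 0.695 and 0.991 RPKM in GW3965. All 5 treated libraries were below the median of the controls and 3 were below the lowest control, DMSO 1, but the others overlapped with it. Mean levels were 1.04 ± 0.140 RPKM in DMSO and 0.815 ± 0.137 RPKM in GW3965 (SD, n = 5 each), from 347 and 273 reads. The log2 fold change of TWIST2 was -0.32 ± 0.14, with an unadjusted p of 0.0461 and an adjusted p of 0.710 in limma, and the exact two-sided permutation test of its mean log2 levels gave p = 0.0476, where the smallest possible p is 0.00794. Without DMSO 1, GW3965 1 and GW3965 2 the log2 fold change was -0.31 (adjusted p = 0.554, limma). In the remaining 7 libraries TWIST2 was at 1.10 ± 0.0582 RPKM in 4 DMSO and 0.873 ± 0.157 RPKM in 3 GW3965 libraries with no overlap (exact permutation p = 0.0286, the smallest possible). This set of 7 was chosen after the data were seen, and the share of all tested genes without overlap in it was not counted. TWIST1 and TWIST2 are paralogs with similar coding sequence, and how reads that match both were counted is not given in the sources used here.

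The SNAI genes encode zinc-finger repressors of CDH1. SNAI1 (chr20:49982999-49988886, plus strand) was at 0.849, 0.733, 0.601, 0.755 and 0.471 RPKM in DMSO and at 0.621, 0.308, 0.542, 0.547 and 0.670 RPKM in GW3965. No treated library exceeded the control median of 0.733 RPKM, and GW3965 2 fell below all controls. These values rest on 209 reads in DMSO and 162 in GW3965. The log2 fold change was -0.30 ± 0.22 (adjusted p = 0.865, limma), with a 95% interval from -0.79 to 0.18. Without GW3965 2 it was -0.15, and over all libraries left out in turn it ran from -0.41 to -0.15. Without DMSO 1, GW3965 1 and GW3965 2 it was -0.096 (adjusted p = 0.938, limma).

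SNAI2 (chr8:48917604-48921740, minus strand), also called Slug, was at 0.644, 1.33, 1.65, 0.881 and 0.987 RPKM in DMSO and at 0.834, 0.862, 1.13, 0.852 and 1.74 RPKM in GW3965. It was the most variable of the 6, with a coefficient of variation of 36.0% in DMSO and 35.7% in GW3965, and both groups covered nearly the same range. Its log2 fold change was -0.01 ± 0.26 (95% interval -0.57 to 0.56, adjusted p = 0.997, limma), and its sign changed in 8 of 21 alternative settings.

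SNAI3 (chr16:88677682-88686493, minus strand) was at 1.75, 1.17, 1.65, 1.74 and 1.38 RPKM in DMSO and at 2.11, 2.50, 1.62, 1.41 and 1.33 RPKM in GW3965. Only GW3965 1 and GW3965 2 were above all controls. The log2 fold change was 0.19 ± 0.18 (adjusted p = 0.912, limma) and became -0.016 without DMSO 1, GW3965 1 and GW3965 2. An antisense gene, SNAI3-AS1, shares 163 exon bases with SNAI3 and had means of 1.39 and 1.48 RPKM. The library kit marks strand, but the strand setting of the counting is not given in the sources used here, so reads in the shared stretch may belong to either gene.

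ZEB1 and ZEB2 are zinc-finger and homeodomain repressors. ZEB1 was carried by 11237 reads over the 10 libraries and ZEB2 by 258. ZEB1 (chr10:31318495-31529814, plus strand) was at 4.37, 3.82, 3.61, 1.86 and 4.15 RPKM in DMSO and at 4.52, 4.68, 3.22, 2.89 and 3.30 RPKM in GW3965. DMSO 4 was at 0.486 times the median of its group, the lowest of all 10 libraries, and the 3 libraries that stand apart were the 3 highest. The log2 fold change was 0.09 ± 0.22 (95% interval -0.40 to 0.58, adjusted p = 0.974, limma). It was -0.12 without DMSO 4, the only library whose loss alone turned the sign, and -0.037 without DMSO 1, GW3965 1 and GW3965 2 together. The antisense gene ZEB1-AS1 shares 366 exon bases with ZEB1 and had a log2 fold change of 0.06 ± 0.11 (adjusted p = 0.967, limma).

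ZEB2 (chr2:144364364-144524583, minus strand) was at 0.0166, 0.0298, 0.0240, 0.01005 and 0.0177 RPKM in DMSO, from 15, 33, 19, 10 and 15 reads. In GW3965 it was at 0.0315, 0.0421, 0.0202, 0.0410 and 0.0425 RPKM, from 28, 44, 20, 38 and 36 reads. All 5 treated libraries were above the control median and 4 were above the highest control, while GW3965 3 lay inside the control range. The mean was 0.0196 ± 0.00753 RPKM in DMSO and 0.0355 ± 0.00966 RPKM in GW3965 (SD, n = 5 each), a ratio of 1.81. The exact two-sided permutation test gave p = 0.0317, unadjusted, as 1 of 4 such tests of the regulators below the filter. In the limma fit of 47537 genes without a filter its adjusted p was 0.913. The exact p rose to 0.171 without DMSO 1, GW3965 1 and GW3965 2, where the smallest p possible is 0.0286, and ran from 0.0159 to 0.0635 when each library was left out in turn. The mean RPKM of ZEB1 was 181.5 times that of ZEB2 in DMSO and 105.0 times in GW3965. These ratios depend on gene length, by which RPKM divides: the annotated exons span 8650 bases for ZEB1 and 25058 for ZEB2. In reads, ZEB1 had 5425 and ZEB2 92 in DMSO, and 5812 and 166 in GW3965. ZEB2-AS1, which shares 1299 exon bases with ZEB2, had 0 reads in DMSO and 2 in GW3965.

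ESRP1, GRHL2 and OVOL1, those of the 10 regulators that hold the epithelial state, were at the edge of detection. This did not hold for all regulators of that state. Of 19 others listed, 12 passed the filter, the highest being SPDEF (46.2 RPKM over all libraries) and FOXA1 (33.4 RPKM), and 7 did not. ESRP1 (chr8:94641074-94707466, plus strand) had 19 reads in DMSO and 25 in GW3965, between 2 and 8 per library, and means of 0.0220 and 0.0288 RPKM (exact permutation p = 0.397). GRHL2 (chr8:101492432-101669726, plus strand) had 4 reads in DMSO and 5 in GW3965 with at most 2 in any library (exact permutation p = 0.952). OVOL1 (chr11:65787022-65797219, plus strand) had 1 read each in DMSO 1, DMSO 3 and DMSO 5 and none in GW3965, and a count of 0 allows up to 3 reads (exact permutation p = 0.167). No fold change is given for GRHL2 and OVOL1, since neither had over 3 reads in any library, and a difference was not detectable at this depth. ESRP2, the paralog of ESRP1 with a like role in splicing, was in contrast at 4.87 ± 0.445 RPKM in DMSO and 4.59 ± 0.528 RPKM in GW3965 (log2 fold change -0.09 ± 0.09, adjusted p = 0.927, limma).

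**Figure D3:**
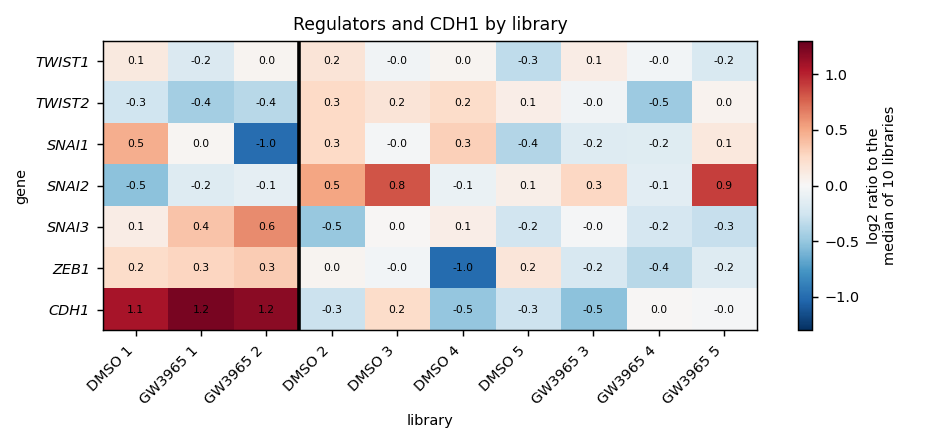
Level of the 6 tested regulators and CDH1 (rows) in each library (columns) as the log2 ratio to the median of the 10 libraries, red above and blue below. The first 3 columns, left of the line, are DMSO 1, GW3965 1 and GW3965 2: CDH1, ZEB1 and SNAI3 are at or above their medians there in both conditions, and TWIST2 and SNAI2 are below.

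The ranges of ZEB1, SNAI3 and CDH1 did not overlap between sets of libraries that each held both conditions. In DMSO 1, GW3965 1 and GW3965 2, ZEB1 lay between 4.37 and 4.68 RPKM, against 1.86 to 4.15 in the other 7. SNAI3 was at 1.75 to 2.50 RPKM in those 3 and at 1.17 to 1.74 RPKM elsewhere, so its ranges nearly met. CDH1, the E-cadherin gene that ZEB1 represses, lay between 0.462 and 0.518 RPKM in the same 3 libraries and between 0.152 and 0.261 RPKM in the others, with no overlap. ZEB1 and CDH1 were thus highest in the same libraries, 1 of them a control. The component that set these 3 libraries apart was taken from 14375 genes averaging 100 or more reads per library, which held ZEB1 and SNAI3 but not CDH1. The 3 libraries were picked after the data were seen. The share of all tested genes whose ranges separate them from the other 7 was not counted. The ranges are given as a description, and what separates the libraries was not tested.

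The partners and other factors of the pathway were counted from lists, whose members and those above were chosen with earlier results of these data known. The E proteins and their ID inhibitors set how much TWIST protein can form active dimers. Of 7, 6 were tested and none passed, with 2 higher, 4 lower and a median log2 fold change of -0.01. ID2 was the highest, at 0.32 ± 0.14 (adjusted p = 0.715, limma), and ID3 the lowest, at -0.60 ± 0.23 (unadjusted p = 0.0231, adjusted p = 0.580, limma). Of 20 other transcription factors that induce EMT, 12 were tested and none passed, from -0.16 for SOX4 to 0.13 for RUNX2 with a median of 0.04.

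Among 19 other regulators that keep the epithelial state, 12 were tested, 1 rose and none fell, with 6 of 12 estimates above 0 and a median of -0.0030. The gene that rose was KLF4, a zinc-finger factor that activates CDH1 in epithelial cells. KLF4 was at 2.79, 2.82, 3.01, 2.76 and 2.37 RPKM in DMSO and at 5.99, 5.90, 5.50, 5.16 and 6.42 RPKM in GW3965. Every treated library exceeded every control, at a log2 fold change of 1.05 ± 0.08 (adjusted p = 0.000178, limma), and KLF4 passed in all 21 alternative settings. The lowest estimate of that list was GATA3, at -0.16 ± 0.24 (adjusted p = 0.956, limma). Its other members with an unadjusted p under 0.05, named after their values were seen, were EHF at 0.47 and KLF5 at 0.22 (adjusted p = 0.664 and 0.523, limma). With KLF4 that made 3 of the 12, against 6.99% of all tested genes. Of the relatives of OVOL1 and GRHL2, OVOL2, OVOL3 and GRHL3 were under the filter, at means over all libraries of 0.0230, 0.342 and 0.0238 RPKM. GRHL1 passed the filter, at 0.782 RPKM (log2 fold change 0.14 ± 0.14, adjusted p = 0.924, limma).

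None passed among the other groups that act with these factors. Of 22 other EMT splicing factors, 17 were tested, from -0.16 for PTBP2 to 0.13 for HNRNPA1, with a median of -0.0032. All 18 corepressors and chromatin partners through which SNAI and ZEB proteins silence genes were tested, from -0.12 for EED to 0.13 for KAT2B. Of 21 enzymes that modify or degrade these factors, 20 were tested, from -0.17 for PRKD1 to 0.19 for BTRC, which encodes an F-box protein that targets SNAI1 protein for degradation. BTRC was the 1 of the 20 with an unadjusted p under 0.05 (0.0243, adjusted p = 0.591, limma), against 6.99% of all tested genes. These enzymes act on protein, which was not measured here.

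Downstream of the regulators, no listed gene passed either. Of 29 epithelial target genes, 17 were tested. Of these, 14 had estimates above 0 and 3 below, with a median of 0.11 beside 0.0034 for all tested genes. CLDN1, a tight-junction protein, was the highest at 0.36 ± 0.16 (adjusted p = 0.705, limma), and KRT8 the lowest at -0.02 ± 0.10. EPCAM, an epithelial adhesion molecule, had a log2 fold change of 0.27 ± 0.14 (adjusted p = 0.774, limma). PKP2 and MAL2, named after their values were seen, also had unadjusted p under 0.05, with log2 fold changes of 0.30 and 0.35 (adjusted p = 0.482 and 0.610, limma). With CLDN1 that made 3 of the 17, against 6.99% of all tested genes. CDH1 and DSP, which encodes desmoplakin, were among the 12 below the filter. CDH1 was at 0.462, 0.182, 0.261, 0.156 and 0.183 RPKM in DMSO and 0.518, 0.498, 0.152, 0.223 and 0.218 RPKM in GW3965. Its group means of 0.249 and 0.322 RPKM (exact permutation p = 0.421) became 0.195 and 0.198 RPKM without DMSO 1, GW3965 1 and GW3965 2. DSP averaged 0.0511 RPKM in DMSO and 0.0541 RPKM in GW3965 (exact permutation p = 0.579). Without the same 3 libraries DSP was at 0.0470 ± 0.00290 RPKM in 4 DMSO and 0.0595 ± 0.00179 RPKM in 3 GW3965 libraries with no overlap (exact permutation p = 0.0286, the smallest possible). These DSP levels rest on 26, 18, 26 and 20 reads in DMSO 2 to 5. In GW3965 3 to 5 they rest on 30, 29 and 25 reads, and counting error is large at such counts. In this reduced set the exact permutation p was 0.371 for EPCAM and 0.971 for CDH1. The reduced set was chosen after the data were seen, and the share of all tested genes without overlap in it was not counted.

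Of 20 mesenchymal genes, 15 were tested and none passed, with 10 estimates above 0, 5 below and a median of 0.11. VIM, the intermediate filament vimentin, was at 59.9, 63.1, 66.2, 76.8 and 62.1 RPKM in DMSO and at 68.5, 67.8, 77.0, 78.8 and 74.6 RPKM in GW3965. All 5 treated libraries lay above the control median, but DMSO 4 lay among them, and the log2 fold change was 0.16 ± 0.08 (adjusted p = 0.725, limma). FN1, or fibronectin, gave 0.09 ± 0.14 and CDH2, or N-cadherin, 0.19 ± 0.11 (adjusted p = 0.955 and 0.814, limma). CDH2 was at 10.5, 12.7 and 12.7 RPKM in DMSO 1, GW3965 1 and GW3965 2. In the other 7 libraries CDH2 averaged 13.7 ± 0.656 RPKM in 4 DMSO and 16.6 ± 0.553 RPKM in 3 GW3965 libraries with no overlap (exact permutation p = 0.0286, the smallest possible). In the same 7 the exact permutation p was 0.0857 for VIM and 0.629 for FN1. These 7 were chosen after the data were seen, and the share of all tested genes without overlap in them was not counted. WNT5A, a secreted signal, was the 1 of the 15 whose groups of 5 libraries did not overlap, against 1.84% of all tested genes. It lay between 4.65 and 4.94 RPKM in DMSO and between 4.99 and 5.43 RPKM in GW3965, a log2 fold change of 0.11 ± 0.05 (adjusted p = 0.711, limma). CDH11 and S100A4, named after their values were seen, also had unadjusted p under 0.05, at 0.24 and 0.16 (adjusted p = 0.711 each, limma). With WNT5A that made 3 of the 15, against 6.99% of all tested genes. The ends of the list were COL3A1 at 0.26 ± 0.29 and TNC at -0.22 ± 0.17.

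**Figure D4:**
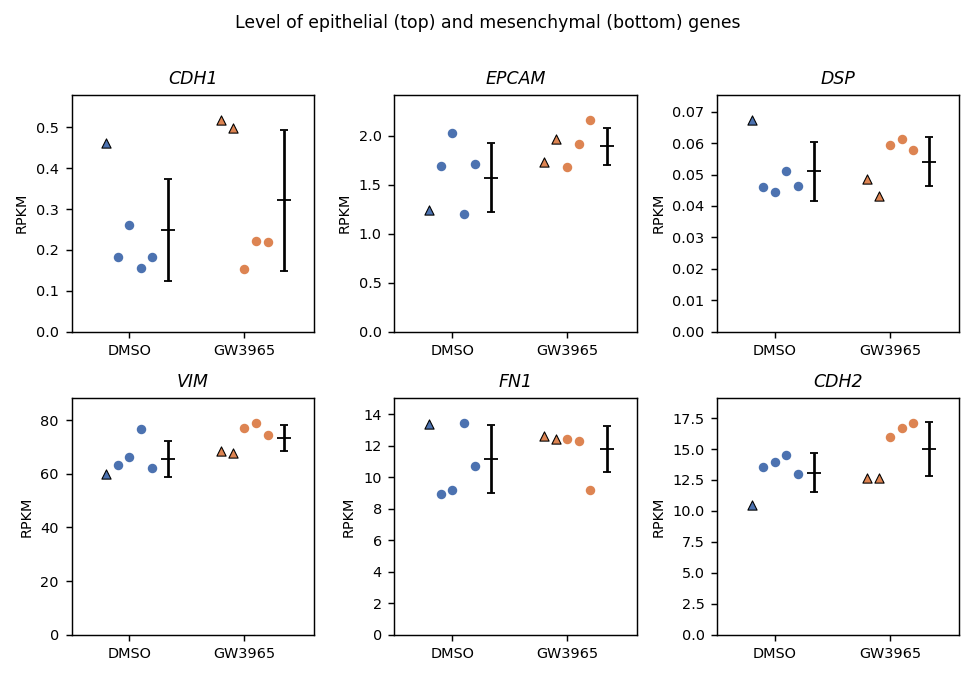
Level in RPKM (vertical axis, from 0) of CDH1, EPCAM and DSP (epithelial, top) and VIM, FN1 and CDH2 (mesenchymal, bottom) by condition. Points are libraries, triangles are DMSO 1, GW3965 1 and GW3965 2, and bars are the mean ± SD of 5 libraries. CDH1 is highest in the 3 triangles and CDH2 lowest in them.

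Genes with exons under ESRP control were measured only as whole genes, since the table holds 1 value per gene and shows no exon use. Of 16, 15 were tested and none passed, from -0.08 for SCRIB to 0.25 for RALGPS2 with a median of 0.06. FGFR2 was under the filter, at an overall mean of 0.00683 RPKM. CD44, whose variant exons ESRP1 retains, was at 26.5 RPKM in DMSO and 27.7 RPKM in GW3965.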

How the data were processed

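Total RNA of PC3 cells depleted of ribosomal RNA was sequenced by the authors as single reads of 50 bases (the sample records name polyA RNA). Per the labels' processing notes, HISAT2 2.1.0, HTSeq 0.11.2 and hg38 were used, whereas the methods name another version and a mouse genome for this step; all gene identifiers are human. The authors deposited RPKM values of 62656 genes. Whole reads were recovered for 380255 of 380271 values above 0. The recovered reads showed that each library's scale in the RPKM values equals its median-of-ratios size factor.

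The deposited RPKM values were tested with limma 3.58.1 in R 4.3.3 (eBayes with trend, two-sided, Benjamini-Hochberg over 20402 genes averaging 0.5 RPKM or more, pseudocount 0.1, threshold 0.05). Regulators below the filter were tested by exact permutation of mean RPKM. The procedure was tested on simulated data. These had the same spread beyond counting error for every gene and no libraries that stood apart, unlike the measured data. The members and lists were chosen with earlier results of these data known. Named were all 10 regulators and, of each list, genes past the threshold, genes without overlap, both ends, and CDH1, EPCAM, DSP, VIM, FN1 and CDH2. Alternatives were pseudocounts of 1 and 0.01, other filters and scalings, a replicate block, no trend, library weights, voom on the recovered reads and the loss of each library. The loss of 3 libraries together was added after the data were seen. Reads carry no molecular identifiers, so precision from reads covers counting error only. A marker of the epithelial prostate list is not reported here.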

Additional observations from a re-analysis of the deposited data

Results flagged for a closer look

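Within a condition, 2 of 19 groups of 5 libraries had 1 library far from the others, judged by its gap to the nearest library as a share of the whole range of log2(RPKM + 0.1), for which the 95% limit for 5 values is 0.71. Chance gives about 1 in 20, or 0.95 here. SNAI1 was lowest in GW3965 2, with a share of 0.714, at 0.308 RPKM and 21 reads. ZEB1 was lowest in DMSO 4, with a share of 0.775, at 1.86 RPKM and 611 reads. The cause was not tested.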

How the results depend on the processing

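No regulator passed in any of 21 alternative settings, and SNAI1 and TWIST2 stayed below 0 in all 20 that tested them. The number of all genes called, 32, became 21 with no filter, 16 with the replicate block, 20 without a trend, 56 with library weights, 64 with voom and 18 without DMSO 1, GW3965 1 and GW3965 2, and ran from 17 to 38 with 1 library left out. Of the 4 LXR target genes, 2 (ABCA1 and ABCG1) passed with the replicate block and 2 (the same) without those 3 libraries, and MYLIP also missed the threshold when scaled to the same total RPKM (adjusted p = 0.115). Same-numbered libraries showed no regular pairing: the correlations of their deviations ran from -0.138 to 0.160, and only libraries of number 4 matched each other best. The replicate block lowered the SE of ZEB1 (0.223 to 0.136), SNAI2 and TWIST1, and raised that of SNAI1, SNAI3 and TWIST2. Scaling to the same total RPKM moved the median log2 fold change of all genes to 0.14, so that SNAI2 (0.11) and TWIST1 (0.088) turned positive but stayed below that median. The same scaling moved the list medians to 0.13 (E proteins and ID inhibitors), 0.17 (other inducers), 0.13 (epithelial-keeping regulators), 0.13 (splicing factors), 0.12 (corepressors), 0.13 (modifying enzymes), 0.24 (epithelial targets), 0.25 (mesenchymal genes), 0.20 (ESRP exon genes) and 0.20 (antisense genes). The median of the modifying enzymes, 0.00055, was 0.022 at a filter of 1 RPKM, -0.023 with library weights, -0.017 without the 3 libraries and -0.034 to 0.0068 with 1 library left out, and that of the LXR target genes, 1.43, was 1.18 with a pseudocount of 1. SNAI2 was 0.0074 with quantile normalization and 0.014 without the 3 libraries, SNAI3 -0.016 without them, and ZEB1 -0.094 with library weights and -0.037 without the 3 libraries. With 1 library left out, SNAI2 ran from -0.18 to 0.14 and ZEB1 from -0.12 to 0.18, and the exact p ran from 0.0159 to 0.0635 for ZEB2, 0.0476 to 0.167 for OVOL1, 0.460 to 1.0 for GRHL2 and 0.183 to 0.778 for ESRP1. ZEB2 missed 0.05 without DMSO 1, 4 or 5 or GW3965 2, 4 or 5, and OVOL1 was below it without DMSO 2 or 4. Without the 3 libraries, the exact p of ZEB2 was 0.171, and GRHL2 (0.286) and ESRP1 (0.657) changed direction. The causes were not tested. Depth limits OVOL1, GRHL2, ESRP1 and ZEB2 most.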
